A study of Mus musculus with 4 samples.

Results

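The Wnt ligands, their Frizzled receptors and the secreted proteins that modulate them were described in single cells of the mouse heart at E10.5. The module was every gene whose symbol is *Wnt*, *Fzd*, *Rspo*, *Dkk* or *Sfrp* followed by its family number, which gave 41 of the 32285 genes counted. These were 19 Wnt ligands, 10 Frizzled receptors, 4 R-spondins, 4 Dickkopf genes and 4 secreted Frizzled-related genes. UMIs of 39 of them were found in the cells kept, and *Wnt1* and *Wnt3a* had none.

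The cells came from 4 libraries made on the 10x Chromium platform, of which 2 were control (Tie2flfl, libraries 5 and 7) and 2 *Tie2-cko* (Nfatcre-Tie2flfl, libraries 6 and 8). Both genotypes carried the floxed *Tie2* alleles, and the strain background was a mixture of 129 and C57/BL6. In *Tie2-cko* embryos a constitutive *Nfatc1* Cre knock-in, active in the endocardium, removed *Tie2* (*Tek*), which encodes a receptor tyrosine kinase of endothelial cells. The dissected tissue was the whole cardiogenic region, so cells of neighbouring tissues entered the libraries, and *Tie2* outside the *Nfatc1* lineage was kept. The comparison of genotypes asks which genes changed with loss of *Tie2* from endocardial cells (EdCs).

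Between 5684 and 10097 cells per library were kept, with median depths of 14898 to 25740 UMIs. Libraries 5 and 6 stood apart from libraries 7 and 8. Cardiomyocytes (CMs), EdCs, mesenchymal cells (MCs) and epicardial cells together made up 46.8% and 37.2% of libraries 5 and 6, against 74.2% and 76.1% of libraries 7 and 8, and foregut mesenchyme came almost entirely from libraries 5 and 6. Ventricular CMs were also grouped along this split. Their group led by *Hmga1* held 1214 and 506 cells of libraries 5 and 6, against 15 and 21 of libraries 7 and 8. Their group led by *Hmga1b* held 27 and 58 cells against 532 and 752. Each of these pairs of libraries holds 1 library of each genotype. Barcodes shared by any pair of libraries numbered 12 to 29. *Tek* matched the labels. Its level in chamber EdCs was 0.890 and 1.01 UMIs per 10000 in the controls against 0.151 and 0.144 in *Tie2-cko*, and in vascular endothelial cells it was 0.635 and 0.728 against 0.802 and 0.647.

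Cell types and CM regions are named from markers, and the 41 module genes and 43 further Wnt pathway genes were kept out of the genes used to group the cells. Chamber EdCs, which line the atria and ventricles, numbered 1575 cells and cushion EdCs, which cover the valve-forming cushions, numbered 1172 cells. The 12349 CMs were divided into ventricular, trabecular, atrial, sinus venosus, atrioventricular canal and outflow tract CMs. A small group of 186 cells with atrial markers was kept apart for its leading gene *Osr1*, and is called *Osr1*-high atrial CMs. Library 6 held 15 of these cells and gives no value for them. MCs, epicardial cells and vascular endothelial cells complete the 12 heart populations. A level is the mean over cells of UMIs per 10000 UMIs of the cell, taken per library. The values count transcript ends, so levels are compared between populations for the same gene and not between genes.

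Wnt proteins are secreted lipid-modified ligands that bind Frizzled receptors and, for the canonical pathway, the co-receptors LRP5 and LRP6, which stabilises β-catenin and drives target genes through TCF/LEF factors. R-spondins bind LGR receptors and the ligases ZNRF3 and RNF43 and so keep Frizzled receptors at the cell surface. Dickkopf proteins block the LRP co-receptors, and secreted Frizzled-related proteins bind Wnt ligands outside the cell. In the embryonic heart, canonical Wnt signalling is known for its roles in the second heart field, the atrioventricular canal and the cushions, and non-canonical ligands such as WNT5A and WNT11 for outflow tract development.

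Sequence upstream of the gene start is shown for *Rspo1*, *Wnt4* and *Wnt2*, each highest in a different heart population, and for *Dkk1* and *Dkk2*, which had the lowest unadjusted p-values of the module in cushion EdCs. The sequences are from RefSeq on GRCm38.p6, 5′ to 3′ on the strand of the gene, and end before the transcribed part, except that the last base of *Dkk1* lies inside an annotated exon. Capitals mark a match to the TCF/LEF motif CTTTGA or its reverse complement TCAAAG. *Rspo1* lies at chr4:124986180-124986429 on the plus strand, *Wnt4* at chr4:137277385-137277488 on the plus strand, *Wnt2* at chr6:18030586-18030695 on the minus strand, *Dkk1* at chr19:30549665-30549746 on the minus strand and *Dkk2* at chr3:132085042-132085291 on the plus strand.
Rspo1: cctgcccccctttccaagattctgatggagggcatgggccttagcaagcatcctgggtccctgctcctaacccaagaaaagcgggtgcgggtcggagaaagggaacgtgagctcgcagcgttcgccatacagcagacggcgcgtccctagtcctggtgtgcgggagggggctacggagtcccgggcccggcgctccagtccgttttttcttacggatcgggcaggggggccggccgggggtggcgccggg
Wnt4: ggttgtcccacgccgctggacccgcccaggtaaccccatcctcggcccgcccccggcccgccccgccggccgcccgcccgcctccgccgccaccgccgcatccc
Wnt2: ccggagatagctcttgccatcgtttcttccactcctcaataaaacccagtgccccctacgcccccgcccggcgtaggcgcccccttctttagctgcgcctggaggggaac
Dkk1: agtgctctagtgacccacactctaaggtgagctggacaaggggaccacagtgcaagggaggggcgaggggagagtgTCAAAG
Dkk2: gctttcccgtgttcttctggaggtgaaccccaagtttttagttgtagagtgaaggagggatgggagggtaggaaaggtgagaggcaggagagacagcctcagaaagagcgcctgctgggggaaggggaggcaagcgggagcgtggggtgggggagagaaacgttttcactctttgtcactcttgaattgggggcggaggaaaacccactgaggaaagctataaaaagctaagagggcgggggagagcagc
The capitals in *Dkk1* start 174 bases before its RefSeq start. In windows of 250 bases upstream of RefSeq starts, searched on both strands, the TCF/LEF motif was found in 13.8% of all 32851 windows and in 4 of the 30 windows of the 27 module genes matched, those of *Fzd1*, *Wnt5b*, *Wnt11* and *Dkk1*. The FOXO motif GTAAACA was found in 3.17% of all windows and in 0 of the 30. *Dkk1* was the only gene among the 5 shown with a TCF/LEF match. It had 2 matches, of which 1 lies in the sequence printed. The sequences printed for *Dkk1*, *Wnt4* and *Wnt2*, of 82, 104 and 110 bases, are shorter than the windows searched. A match describes the letters and not a bound site.

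A level of at least 0.2 UMIs per 10000, averaged over the libraries, was reached in some heart population by 16 of the 41 genes. These were 5 of 19 Wnt ligands, 5 of 10 Frizzled receptors, 2 of 4 R-spondins, 3 of 4 Dickkopf genes and 1 of 4 secreted Frizzled-related genes. For 5 of the 16 (*Wnt4*, *Wnt5b*, *Rspo1*, *Rspo3* and *Fzd2*) the libraries of the highest population did not overlap those of the next. *Wnt2*, *Wnt4*, *Wnt5b*, *Rspo1* and *Rspo3* were each concentrated in 1 or a few populations, whereas *Wnt5a*, *Fzd2* and *Fzd3* were spread over many. Populations are groups of the same cells, so the differences between them are described without a test. Red blood cells, which serve as the background for free RNA, held at most 0.0602 UMIs per 10000 of any module gene. That value is *Fzd5*, whose highest heart level was lower, at 0.0212, so this comparison cannot tell its heart levels from free RNA. Whether red blood cells hold *Fzd5* of their own was not tested.

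**Figure D1:**
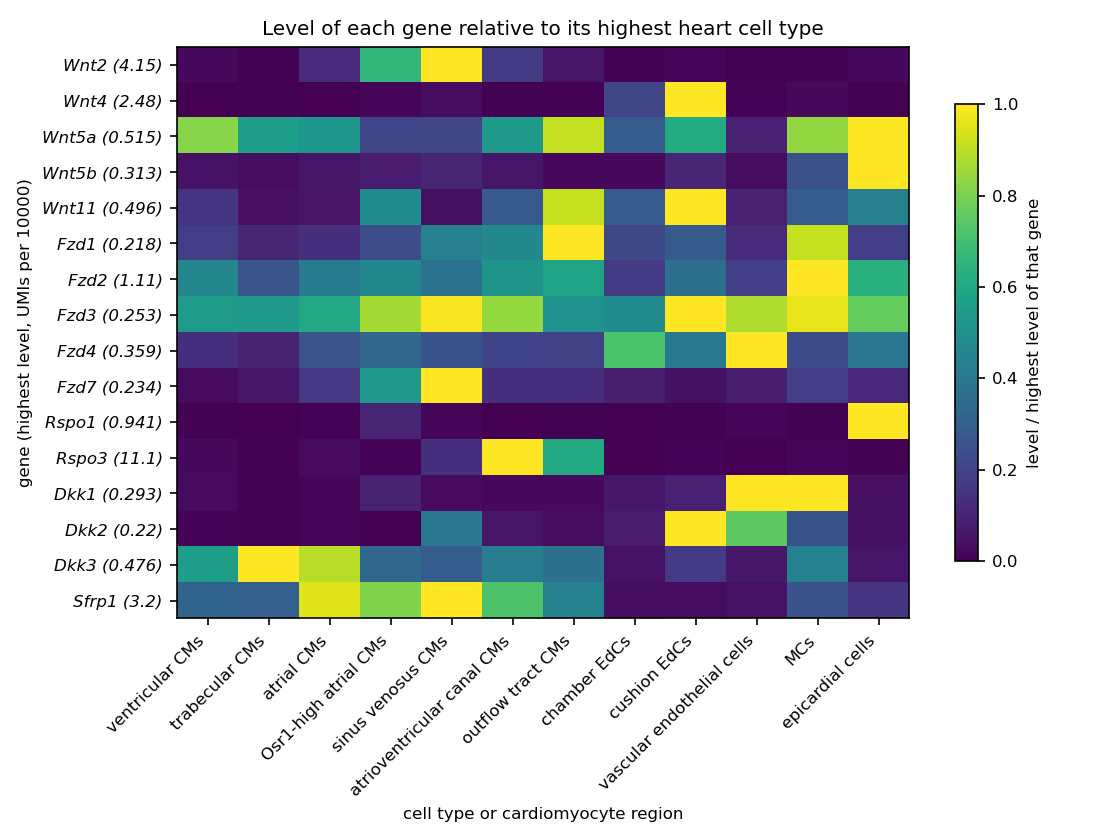
Level of the 16 module genes that reached 0.2 UMIs per 10000 in a heart population (rows) across the 12 heart populations (columns), as the mean over libraries divided by the highest population of the same gene, so that 1 marks that population. *Rspo1* and *Wnt5b* peak in epicardial cells and *Wnt4* in cushion EdCs, while *Fzd2* and *Fzd3* are spread over most columns.

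Among the ligands, *Wnt4*, a ligand with canonical and non-canonical activities in different tissues, was highest in cushion EdCs, where controls held 2.39 and 2.83 and *Tie2-cko* hearts 2.49 and 2.20 (2.48 ± 0.27, SD, n = 4). Chamber EdCs held 0.471, 0.617, 0.597 and 0.393 in libraries 5 to 8. In each library the cushion level was 4.03 to 5.61 times the chamber level, and the populations did not overlap. Every other heart population averaged at most 0.0832. After each cell was thinned to 5500 UMIs, 42.0% to 51.9% of cushion EdCs held a *Wnt4* UMI, against at most 0.493% of red blood cells. Without thinning the mean share in cushion EdCs was 64.4%. Median depths were 11666 to 26185 UMIs in cushion EdCs and 22799 to 60176 in red blood cells. *Wnt4* lies on chromosome 4 from 137277489 to 137299726 (GRCm38).

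*Wnt9b*, another ligand of the endocardium, followed the same division at a much lower level. It was found in cushion EdCs at 0.0637, 0.0686, 0.105 and 0.0887 in libraries 5 to 8, and the next heart population averaged 0.00258. *Wnt9b* thus stayed under 0.2 in every population, and its cushion libraries were all above those of the next.

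*Wnt2*, a canonical ligand of the inflow region of the heart, was highest in sinus venosus CMs at 4.32 and 4.73 in controls and 4.71 and 2.83 in *Tie2-cko* (4.15 ± 0.90). *Osr1*-high atrial CMs followed at 3.12, 3.19 and 1.95 in libraries 5, 7 and 8, and overlapped sinus venosus CMs. Levels fell from there to 0.738 in atrioventricular canal CMs, 0.513 in atrial CMs, 0.241 in outflow tract CMs and 0.102 in ventricular CMs. The sinus venosus level was 6.83 to 11.0 times the atrial level within a library. At 5500 UMIs per cell, 58.4% to 83.8% of sinus venosus CMs held a *Wnt2* UMI, against at most 0.796% of red blood cells. The inflow end of the heart was thus the highest CM region for *Wnt2* in all 4 libraries. The gene lies on chromosome 6 from 17988940 to 18030585.

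*Wnt5a*, the principal non-canonical ligand, was the most evenly spread of the ligands. Epicardial cells held 0.416, 0.481, 0.549 and 0.614 in libraries 5 to 8 (0.515 ± 0.086), and overlapped outflow tract CMs at 0.467 ± 0.061, MCs at 0.432 ± 0.055 and ventricular CMs at 0.421 ± 0.040. Sinus venosus CMs were low at 0.108 ± 0.024, which made *Wnt5a* high in CM regions where *Wnt2* was low. MCs were not uniform. The MC cluster led by *Stmn4* and *Postn* held 0.834, 0.973, 1.10 and 1.02, which was 3.45 to 3.82 times the MC cluster led by *Twist1* and *Rtn1* in the same library.

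*Wnt5b*, a relative of *Wnt5a*, was found mainly in epicardial cells. Their levels were 0.295 and 0.314 in control and 0.353 and 0.291 in *Tie2-cko* libraries, 3.67 to 4.60 times those of MCs, the next population. *Wnt2b*, *Wnt6* and *Wnt9a* were also highest in epicardial cells without overlap with the next population, at 0.0285, 0.0278 and 0.0531, all under 0.2. Epicardial cells thus were the highest heart population for 5 of the ligands described, *Wnt5a* with overlap and *Wnt2b*, *Wnt5b*, *Wnt6* and *Wnt9a* without.

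*Wnt11*, a non-canonical ligand of the outflow tract, was highest in cushion EdCs and outflow tract CMs. Cushion EdCs held 0.458, 0.458, 0.494 and 0.573, and outflow tract CMs 0.388, 0.454, 0.466 and 0.499 in libraries 5 to 8. These populations overlapped each other. Chamber EdCs averaged 0.143 and atrial CMs 0.0264, and within a library the outflow tract level was 9.91 to 24.3 times the atrial level.

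The R-spondins had the largest contrasts between CM regions. *Rspo3*, which amplifies Wnt signals in several developing tissues, was at 10.3 and 13.5 in control and 12.0 and 8.62 in *Tie2-cko* libraries in atrioventricular canal CMs (11.1 ± 2.1). Outflow tract CMs followed at 6.96, 6.61, 6.73 and 6.67 in libraries 5 to 8 (6.74 ± 0.15). Ventricular CMs averaged 0.265, so that outflow tract CMs held 18.2 to 32.1 times the ventricular level within a library. Sinus venosus CMs lay between at 1.51 ± 0.71, atrial CMs at 0.322 ± 0.067, and trabecular CMs were lowest of the CM regions at 0.0497. In thinned cells, 84.2% to 93.5% of atrioventricular canal CMs held an *Rspo3* UMI, against at most 1.31% of red blood cells. *Rspo3* was thus high in the CMs next to both cushion-forming regions. It lies on chromosome 10 from 29452416 to 29535867.

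*Rspo1* was an epicardial gene within the heart. Epicardial cells held 1.08 and 0.780 in control and 1.14 and 0.773 in *Tie2-cko* libraries (0.941 ± 0.19), and *Osr1*-high atrial CMs followed at 0.0958. Ventricular CMs averaged 0.00464. Thinned to 5500 UMIs, 31.2% to 44.4% of epicardial cells held an *Rspo1* UMI, against at most 0.207% of red blood cells, and without thinning the mean share was 72.3%. Outside the heart, foregut mesenchyme of libraries 5 and 6 held 1.08 and 1.16, as much as epicardial cells of the same libraries. *Rspo1* was therefore highest in the outer layer of the heart, and *Rspo3* in the muscle of the atrioventricular canal and outflow tract. *Rspo3* was not confined to muscle. In CPM, the scale of summed counts used below for the genotypes, MCs held 21, 16, 27 and 29 *Rspo3* in libraries 5 to 8. This overlapped ventricular CMs at 24, 24, 35 and 23 CPM. Epicardial cells held 1.7, 2.5, 4.4 and 3.5 CPM of *Rspo3*. *Rspo2* stayed under 0.2 in the mean, with 0, 0.293 and 0.0425 in *Osr1*-high atrial CMs of libraries 5, 7 and 8, and *Rspo4* was at most 0.00477 in a heart population.

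**Figure D2:**
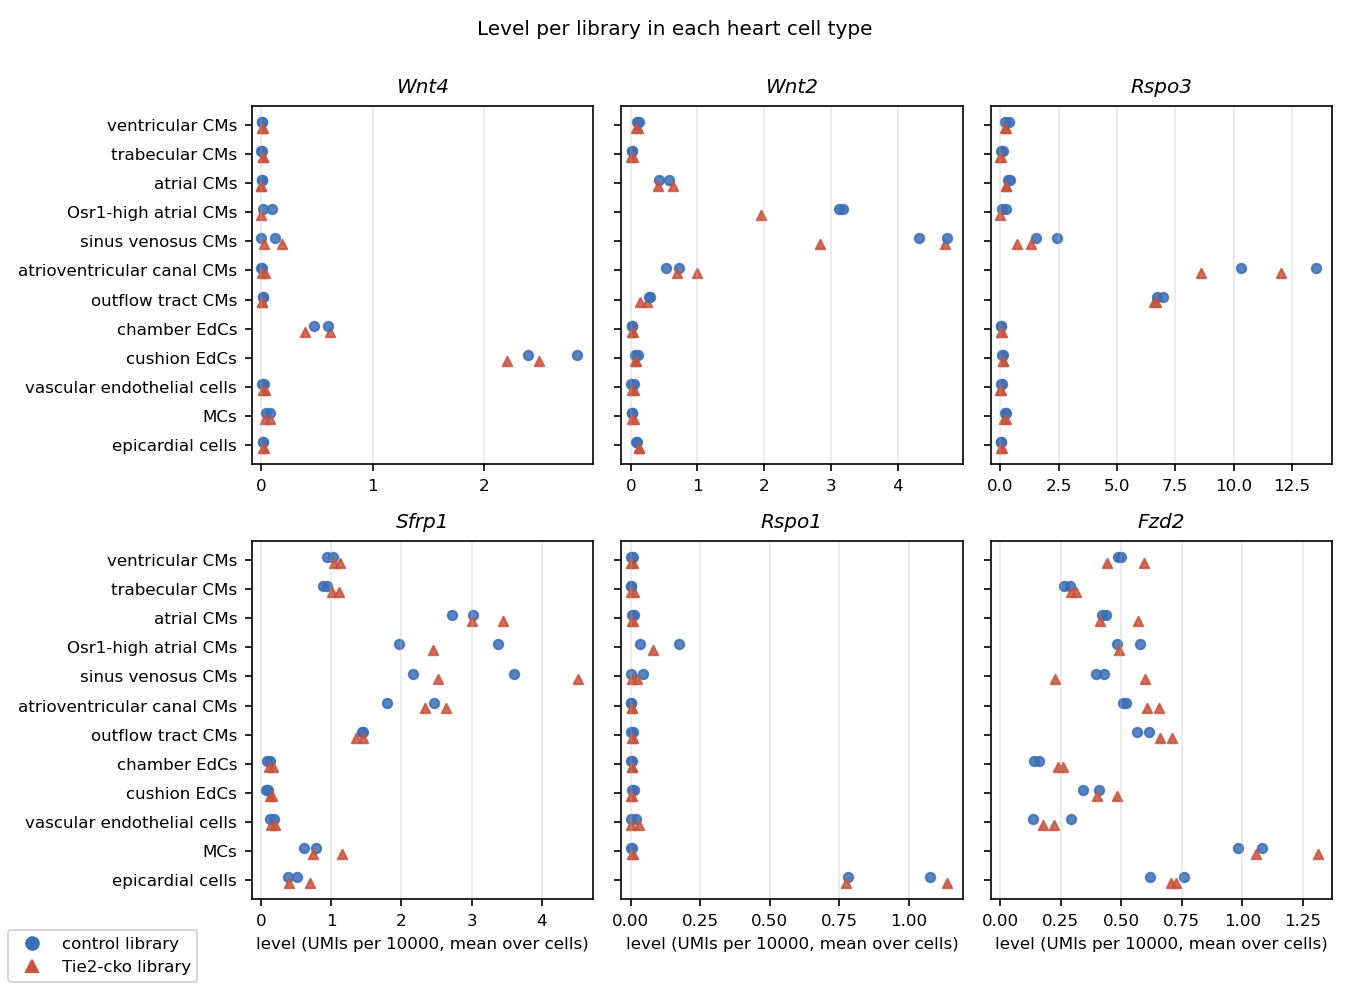
Level per library, in UMIs per 10000, of 6 module genes in the heart populations, with blue circles for control and red triangles for *Tie2-cko* libraries and a separate linear axis from 0 for each gene. *Rspo3* separates atrioventricular canal and outflow tract CMs from the other CMs, *Wnt2* peaks in sinus venosus CMs, *Wnt4* in cushion EdCs and *Rspo1* in epicardial cells, in all 4 libraries.

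The Frizzled receptors were the most broadly found family. *Fzd2* was highest in MCs at 1.08, 1.31, 0.980 and 1.06 in libraries 5 to 8 (1.11 ± 0.14), 1.43 to 1.80 times the epicardial level of the same library. It exceeded 0.2 in every heart population but chamber EdCs, with 0.637 in outflow tract CMs, 0.505 in ventricular CMs and 0.407 in cushion EdCs. Chamber EdCs were lowest at 0.199. *Fzd3* was flatter still, from 0.122 in chamber EdCs to 0.253 in cushion EdCs, where the 3 highest populations overlapped. Both receptors were thus lower in chamber EdCs than in cushion EdCs.

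*Fzd4*, the receptor of norrin in blood vessels, had the reverse order in endothelium. It was highest in vascular endothelial cells at 0.383, 0.270, 0.380 and 0.403 in libraries 5 to 8, and chamber EdCs held 0.212, 0.310, 0.204 and 0.301. Within a library the chamber level was at least 1.40 times the cushion level. Vascular endothelial cells and chamber EdCs overlapped because of library 6.

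*Fzd7* reached 0.234 in sinus venosus CMs (0.207, 0.292, 0.266 and 0.171 in libraries 5 to 8) and 0.125 in *Osr1*-high atrial CMs, and every other heart population averaged at most 0.0427. It shared this inflow pattern with *Wnt2*. *Fzd1* was at 0.218 in outflow tract CMs and 0.199 in MCs, which overlapped, and at 0.102 or less elsewhere in the heart. *Fzd6*, *Fzd8*, *Fzd9* and *Fzd10* stayed under 0.2, with highest heart levels of 0.0972, 0.102, 0.0873 and 0.0409.

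Among the Dickkopf genes, *Dkk1*, the best known inhibitor of LRP6, averaged 0.292 in MCs (0.285, 0.321, 0.253 and 0.307) and 0.293 in vascular endothelial cells, where libraries 5 and 6 held 0.138 and 0.0964 and libraries 7 and 8 held 0.538 and 0.398. The MC signal was concentrated. The MC cluster led by *Stmn4* and *Postn* held 1.12, 1.01, 1.02 and 0.989, between 8.60 and 23.6 times the cluster led by *Twist1* and *Rtn1*. The same MC cluster was the highest for *Wnt5a*. CM regions and epicardial cells held at most 0.029 of *Dkk1*.

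*Dkk2*, which can activate or inhibit depending on the receptors present, was highest in cushion EdCs at 0.201 and 0.123 in control and 0.299 and 0.255 in *Tie2-cko* libraries. This was 10.0 to 23.4 times the chamber level of the same library. Vascular endothelial cells overlapped cushion EdCs at 0.0497, 0.0988, 0.231 and 0.278, and like *Dkk1* were lower in libraries 5 and 6. *Dkk3*, a divergent member of the family, was a CM gene, at 0.476 ± 0.10 in trabecular CMs and 0.425 ± 0.032 in atrial CMs, which overlapped, and at 0.0278 in epicardial cells. *Dkk4* was at or under 0.000737 in every heart population.

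*Sfrp1* was the only secreted Frizzled-related gene over 0.2 in the heart, and its level differed between the CM regions. Sinus venosus CMs held 3.60, 4.51, 2.16 and 2.53 in libraries 5 to 8 and atrial CMs 2.72 to 3.45, which overlapped. Atrioventricular canal CMs averaged 2.31, outflow tract CMs 1.42, ventricular CMs 1.03 and trabecular CMs 0.983. The atrial level was 2.67 to 3.34 times the ventricular level within a library. MCs averaged 0.821, epicardial cells 0.492 and chamber EdCs 0.121. *Sfrp1* thus was higher in the inflow and atrial regions than in the ventricle in each library. The gene lies on chromosome 8 from 23411502 to 23449632. *Sfrp5* lay just under the limit at 0.1999 in sinus venosus CMs (0.144, 0.262, 0.216 and 0.177) and 0.176 in epicardial cells.

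A further 4 genes reached 0.2 only outside the heart populations. *Wnt7b* was at 1.91 and 1.86 in lung epithelium of libraries 5 and 6, *Sfrp2* at 0.736 in foregut mesenchyme, *Wnt6* at 1.46 in the epithelium led by *Pax9* and *Sfn*, and *Fzd5* at 0.216 in foregut epithelium. The remaining 19 genes with a UMI were under 0.2 everywhere. Besides those already described, *Wnt3*, *Wnt7a*, *Wnt8a*, *Wnt8b*, *Wnt10a*, *Wnt10b*, *Wnt16* and *Sfrp4* were at most 0.0320 in a heart population. That value is *Wnt16* in cushion EdCs, where it was detected with 19, 7, 14 and 36 UMIs in libraries 5 to 8. Where a population held no UMIs of these genes, absence of expression cannot be told from low detection.

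The pathway genes outside the module were read from a list of 43. *Wls*, needed for Wnt secretion, was found in every heart population and was highest in epicardial cells at 1.53, 1.52, 1.60 and 1.59 in libraries 5 to 8. The co-receptor *Lrp6* was highest in MCs at 0.441 ± 0.025. Receptors of R-spondins were low, with *Lgr4* at most 0.136, in trabecular CMs, and *Lgr5* at most 0.0125. Of the target and effector genes of canonical signalling, *Axin2*, *Lef1* and *Nkd1* are described. *Axin2* was highest in atrioventricular canal CMs at 0.0915 ± 0.020 and overlapped sinus venosus CMs and MCs, and *Lef1* was at 0.489 ± 0.080 in atrioventricular canal CMs and 0.438 ± 0.040 in MCs. *Nkd1*, a feedback inhibitor, was at 0.359 ± 0.032 in MCs. *Sost*, an inhibitor of LRP co-receptors, was endothelial, at 0.374 in vascular endothelial cells and 0.137 in chamber EdCs.

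Genotypes were compared on sums of the counts of each population in each library, printed as CPM (the count scaled by the TMM-normalised total of the sum). The edgeR quasi-likelihood test was used, and p-values were adjusted by Benjamini-Hochberg across all genes tested in a population. By the study's methods the hearts of a genotype were litter mates. Somite-matched libraries of both genotypes also shared a litter and a sequencing lane, without saying which libraries match. The main test does not use this matching. P-values therefore measure the spread between these libraries and not between litters. In sums over a population, fewer expressing cells and less RNA per cell cannot be told apart. The adjusted p fell under 0.05 for 0 of the module genes in each of the 11 populations tested, by edgeR and by DESeq2. This stands beside 0.00866% of all genes called in chamber EdCs, which is *Tek* alone, 0.042% in epicardial cells and 0.0% in the 9 others. For *Tek*, CPM were 84.5 and 99.0 in control and 12.8 and 17.5 in *Tie2-cko* chamber EdCs (log2 fold change -2.59, SE 0.19, adjusted p = 0.0051). The values below that carry an unadjusted p are therefore not called, and each is given with the share of all genes that reached the same limit.

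In cushion EdCs, 18 module genes passed the filter on low counts and 4 had an unadjusted p under 0.05, beside 1.92% of all genes. These were *Dkk1*, *Dkk2*, *Sfrp1* and *Wnt5b*, and all 4 were higher in both *Tie2-cko* libraries. *Dkk1* was at 1.44 and 1.15 CPM in control and 4.68 and 5.12 in *Tie2-cko* libraries, from 6, 6, 19 and 29 UMIs (log2 fold change 1.92, SE 0.43, unadjusted p = 0.0015, adjusted p = 1.00). The groups did not overlap, and the counts were the lowest of the 4 genes. *Dkk2* was at 19.6 and 13.2 in control and 27.6 and 27.6 in *Tie2-cko* libraries, from 82, 69, 112 and 156 UMIs (log2 fold change 0.76, SE 0.22, unadjusted p = 0.0061, adjusted p = 1.00). Here too the groups did not overlap. Over 10 alternative settings the adjusted p of *Dkk1* ranged from 0.0096 to 1.00 and that of *Dkk2* from 0.0010 to 1.00.

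*Sfrp1* in cushion EdCs was at 7.65 and 9.93 CPM in control and 12.8 and 14.5 in *Tie2-cko* libraries (log2 fold change 0.63, SE 0.24, unadjusted p = 0.0296). *Wnt5b* was at 1.91 and 3.25 against 4.43 and 5.65 (log2 fold change 0.95, SE 0.40, unadjusted p = 0.0422). These secreted inhibitors and this ligand thus lay on the same side. In all, 10 of the 18 genes were above both controls in both *Tie2-cko* libraries, beside 14.7% of all genes, and 1 was below, beside 13.3%. The median log2 fold change of the 18 was 0.26, against 0.0045 over all genes, and 15 were positive.

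Markers of MCs, which also express *Dkk1*, *Sfrp1* and *Wnt5b*, moved with these values. The 8 MC markers summed to 3.81 and 4.06 UMIs per 10000 in control and 4.62 and 4.42 in *Tie2-cko* cushion EdCs, and 5 of the 8 were higher and 1 lower in both *Tie2-cko* libraries. Of this list, *Twist1* and *Postn* are also on the marker list of cushion EdCs, so the sum is not specific to MCs. The 8 vascular endothelial markers summed to 0.518 and 0.442 against 0.427 and 0.485. The 5 red blood cell markers summed to 61.6 and 32.5 against 11.6 and 10.8, and red blood cell markers were likewise lower in *Tie2-cko* in the other tested populations for which values are given below. Their part in the module's values was not tested.

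In chamber EdCs, 17 module genes were tested and 3 had an unadjusted p under 0.05, beside 6.89% of all genes. *Fzd2* was at 15.3 and 11.5 CPM in control and 20.9 and 20.6 in *Tie2-cko* libraries (log2 fold change 0.64, SE 0.20, unadjusted p = 0.0112, adjusted p = 0.565). *Fzd6*, a receptor linked to planar cell polarity, was at 3.52 and 3.35 against 5.86 and 6.19 (log2 fold change 0.81, SE 0.28, unadjusted p = 0.0198). Both receptors were higher in both *Tie2-cko* libraries. *Wnt4* was at 52.0 and 58.0 against 43.8 and 41.4 (log2 fold change -0.37, SE 0.14, unadjusted p = 0.0306, adjusted p = 0.685), and in cushion EdCs at 279 and 317 against 253 and 230 (log2 fold change -0.30, SE 0.15, unadjusted p = 0.0647). As levels per cell, the *Wnt4* groups overlapped in both chamber and cushion EdCs, so its order depends on the scale.

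In chamber EdCs 4 of the 17 genes were above both controls in both *Tie2-cko* libraries, beside 19.3% of all genes, and 2 were below, beside 18.2%. These shares are close to the background. The median log2 fold change was 0.28, against 0.0035 over all genes, and 14 of 17 were positive. *Dkk1* and *Dkk2* had log2 fold changes of 0.69 (unadjusted p = 0.225) and 0.98 (unadjusted p = 0.143) there. MC markers summed to 1.00 and 1.06 in control and 1.32 and 1.55 in *Tie2-cko* chamber EdCs, with 4 of 8 higher and 1 lower in both *Tie2-cko* libraries, and red blood cell markers to 75.7 and 34.6 against 13.4 and 12.0.

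**Figure D3:**
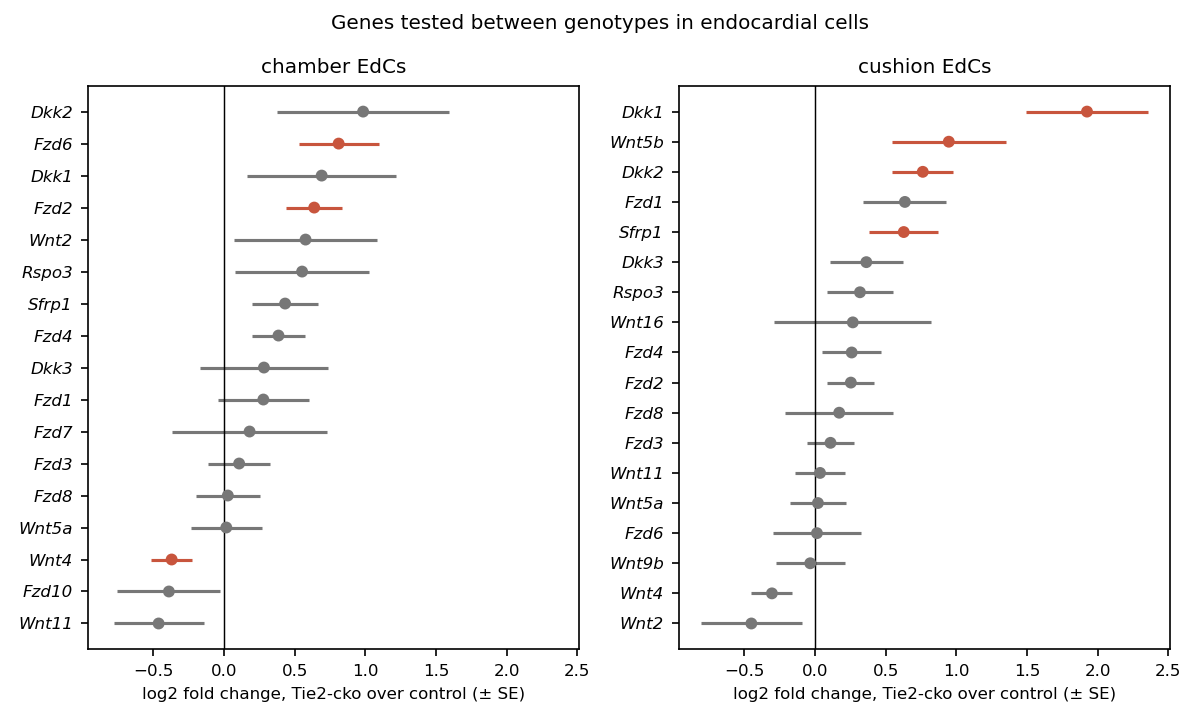
Log2 fold change of *Tie2-cko* over control for the module genes tested in chamber EdCs and cushion EdCs, with points for the estimate, bars for 1 SE on either side, the vertical line at 0, and red for an unadjusted p under 0.05. The largest estimate is *Dkk1* in cushion EdCs at 1.92, and no gene of the module passed an adjusted p of 0.05 in either population.

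Whether the genotype effect differed between cushion and chamber EdCs was tested by their interaction with the library as a block. Adjusted p fell under 0.05 for 0 of 24 module genes, beside 0.573% of all genes, and 4 had an unadjusted p under 0.05, beside 9.27%. Of these *Wnt5b* had the largest difference, 2.12 higher on the log2 scale in cushion EdCs (unadjusted p = 0.0194). Chamber EdCs held only 11, 4, 7 and 2 *Wnt5b* UMIs in libraries 5 to 8, and the gene did not pass the filter on low counts there. *Dkk1* and *Dkk2* were not among the 4, so their values in cushion EdCs are not shown to differ from those in chamber EdCs.

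Among the other pathway genes, 3 of 30 tested had an unadjusted p under 0.05 in chamber EdCs, beside 6.89% of all genes, and 1 of 30 in cushion EdCs, beside 1.92%. By edgeR's quasi-likelihood test 0 had an adjusted p under 0.05. *Daam1*, a formin of the non-canonical pathway, was at 42.5 and 34.5 CPM in control and 70.7 and 59.4 in *Tie2-cko* chamber EdCs (log2 fold change 0.76, SE 0.17, unadjusted p = 0.0016, adjusted p = 0.281). In cushion EdCs its log2 fold change was -0.04 (SE 0.14), and the interaction differed (-0.80, SE 0.14, edgeR adjusted p = 0.0112). *Sost* was at 21.8 and 16.1 against 12.1 and 9.57 in chamber EdCs (log2 fold change -0.81, SE 0.22, unadjusted p = 0.0064, adjusted p = 0.453). *Ror2*, a WNT5A receptor, had a log2 fold change of 0.67 (unadjusted p = 0.048) in chamber EdCs and *Lef1* of 0.57 (unadjusted p = 0.0449) in cushion EdCs. In chamber EdCs, *Daam1* and *Sost* passed the adjusted threshold with a block for libraries 5 and 6 against 7 and 8 (adjusted p = 2.08e-09 and 0.00017) and with no filter on low counts (0.0036 and 0.0245), and in none of the other alternatives.

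In CM regions, *Wnt2* and *Rspo3* had the lowest unadjusted p-values. *Wnt2* in outflow tract CMs was at 37.5 and 27.9 CPM in control and 20.9 and 15.0 in *Tie2-cko* libraries (log2 fold change -0.88, SE 0.22, unadjusted p = 0.0034, adjusted p = 1.00), and was the only one of 15 module genes tested there under 0.05, beside 1.87% of all genes. The groups did not overlap. It passed the adjusted threshold without *Tie2-cko* library 6 (log2 fold change -1.12, adjusted p = 0.0202) and without control library 7 (-1.08, adjusted p = 0.0021), within a range of 4.83e-08 to 1.00 over 10 settings. The sinus venosus list of 5 markers shares *Isl1* with the outflow tract list. It summed to 1.10 and 1.10 UMIs per 10000 in control and 1.44 and 1.26 in *Tie2-cko* outflow tract CMs. There the MC list summed to 0.451 and 0.533 against 0.711 and 0.712, and the red blood cell list to 43.5 and 21.1 against 11.1 and 7.74. Their part in the result was not tested. *Wnt2* had log2 fold changes of -0.23 in sinus venosus CMs, 0.36 in atrioventricular canal CMs and 0.05 in atrial CMs.

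*Rspo3* in atrial CMs was at 48.6 and 40.3 in control and 30.2 and 31.4 in *Tie2-cko* libraries (log2 fold change -0.53, SE 0.14, unadjusted p = 0.0073, adjusted p = 1.00), again alone among 19 module genes tested, beside 0.814% of all genes. The groups did not overlap. In sinus venosus CMs it was at 159 and 262 against 85.8 and 118 (log2 fold change -1.05, SE 0.32, unadjusted p = 0.0106), beside 0.757% of all genes. Without *Tie2-cko* library 8 this difference passed the adjusted threshold (log2 fold change -1.30, adjusted p = 0.0043), as did *Fzd1* in the same cells (1.60, adjusted p = 0.0428) and *Rspo3* in trabecular CMs (-3.94, adjusted p = 0.0259). Of these, the calls of *Fzd1* and of *Rspo3* in trabecular CMs were made in no other setting. Trabecular CMs held 35, 1, 23 and 56 *Rspo3* UMIs in libraries 5 to 8, so without library 8 the *Tie2-cko* value rests on 1 UMI. With all libraries the log2 fold change there was -0.28 (SE 0.63). The atrioventricular canal list of 5 markers, the cells with most *Rspo3*, summed to 0.660 and 0.779 in control and 0.868 and 0.648 in *Tie2-cko* atrial CMs, and to 1.44 and 1.98 against 1.54 and 1.18 in sinus venosus CMs. The red blood cell list summed to 37.8 and 16.9 against 9.26 and 6.27 in atrial CMs and to 57.9 and 30.3 against 14.1 and 10.3 in sinus venosus CMs, and the MC list in sinus venosus CMs to 2.23 and 1.62 against 3.32 and 0.416. Their part in the result was not tested.

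Where *Rspo3* was most abundant, the genotypes differed little against their error. Atrioventricular canal CMs held 1074 and 1297 CPM in control and 1110 and 873 in *Tie2-cko* libraries (log2 fold change -0.26, SE 0.18), and outflow tract CMs 690 and 697 against 633 and 681 (-0.08, SE 0.13). In atrioventricular canal CMs, *Dkk3* (log2 fold change 0.58, unadjusted p = 0.0150) and *Fzd4* (0.66, unadjusted p = 0.0456) were the 2 of 16 module genes under 0.05, beside 1.52% of all genes. In ventricular CMs *Sfrp2* was the 1 of 23 (log2 fold change 0.61, unadjusted p = 0.0359), beside 0.523%, and in trabecular CMs 0 of 15 were, beside 1.57%. Over all CMs the number was 0 of 26, beside 0.392%.

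Counts of module genes whose genotypes did not overlap in the CM regions read as follows beside the shares of all genes. The counts were not tested against these shares. In outflow tract CMs 5 of 15 genes were above both controls and 2 below, beside 13.0% and 12.3%, and in atrioventricular canal CMs 4 and 1 of 16, beside 12.3% and 12.8%. Ventricular CMs had 4 and 1 of 23, beside 9.5% and 8.98%, and trabecular CMs 4 and 1 of 15, beside 13.3% and 13.0%. Atrial CMs had 2 and 3 of 19, beside 11.0% and 11.1%, and sinus venosus CMs 1 and 1 of 15, beside 10.2% and 10.4%. Over all CMs 4 of 26 were above and 0 below, beside 8.59% and 7.99%.

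**Figure D4:**
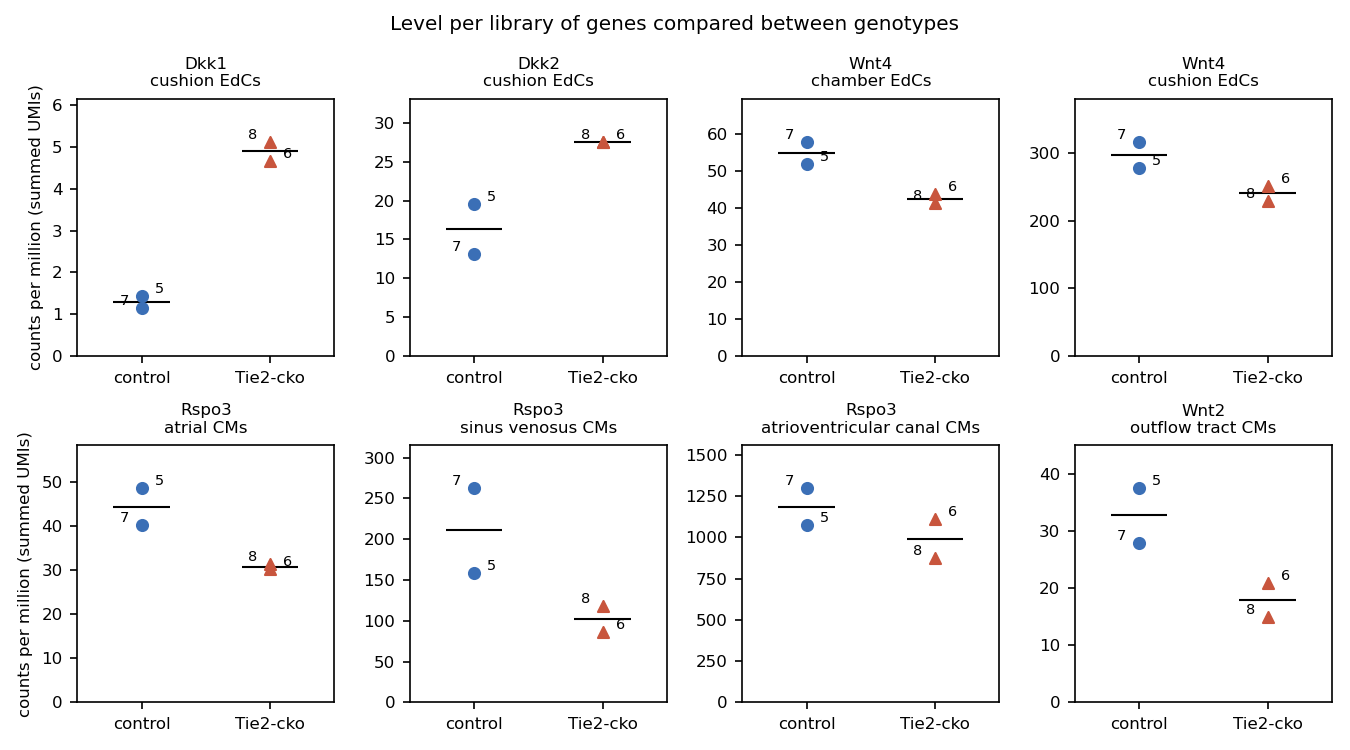
CPM per library (vertical axes, from 0) in 8 panels for *Dkk1*, *Dkk2*, *Wnt4*, *Rspo3* and *Wnt2* in the populations named, with blue circles for control and red triangles for *Tie2-cko*, library numbers beside the points, and a line at the mean of each genotype. Both *Tie2-cko* libraries lie above both controls for *Dkk1* and *Dkk2* and below them in the other panels, except *Rspo3* in atrioventricular canal CMs, where the genotypes overlap.

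In MCs 0 of 20 and in epicardial cells 0 of 22 module genes had an unadjusted p under 0.05, beside 0.999% and 1.05% of all genes. *Rspo1*, the epicardial R-spondin, had a log2 fold change of -0.05 (SE 0.19) in epicardial cells. *Nkd1* was the pathway gene under 0.05 in MCs (log2 fold change -0.33, unadjusted p = 0.0302). In epicardial cells 6 of 22 module genes were above both controls in both *Tie2-cko* libraries, beside 12.7% of all genes, and 0 were below, beside 11.4%. In MCs 3 of 20 were above and 2 below, beside 12.3% and 11.5%.

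Libraries 5 and 6 stood apart from libraries 7 and 8 in their make-up and in the grouping of their ventricular CMs, and each pair holds both genotypes. The main test leaves this split out. The test was therefore repeated with that split as a block, which the labels do not give as a pairing. In chamber EdCs *Fzd2* (adjusted p = 0.0016), *Wnt4* (0.0191) and *Fzd4* (0.0398) were then called, beside 7.23% of all genes. In cushion EdCs *Dkk2* (0.0010) and *Dkk1* (0.0096) were called, beside 0.74%. In CM regions the calls were *Rspo3* in atrial CMs (0.00063, beside 0.322%) and sinus venosus CMs (0.0012, beside 0.0946%) and *Wnt2* in outflow tract CMs (4.83e-08, beside 0.886%). Over all CMs *Rspo3* was called (log2 fold change -0.34, adjusted p = 0.0025, beside 0.668%), and in MCs *Sfrp1* (0.33, adjusted p = 0.0158, beside 0.716%). With no filter on low counts, *Dkk1* in cushion EdCs (adjusted p = 0.0364, beside 0.175%) and *Wnt2* in outflow tract CMs (0.0070, beside 0.103%) were called. Over the alternatives run, the call of each of these genes therefore depended on the setting.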

How the data were processed

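Hearts of 2 control and 2 *Tie2-cko* libraries were used, with genotypes from their labels. The authors aligned reads with Cell Ranger to mm10, per the labels, and deposited UMI counts per gene and barcode without normalization. The file header names version 6.1.2 and the methods another, and the annotation is not given in the sources used here. The module genes and lists were chosen with earlier results of these data known.

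Cells needed 500 genes, 1000 UMIs and a mitochondrial share of no more than 10%. Presumed doublets were the top Scrublet scores (scanpy 1.11.5), removed at 0.8% per 1000 barcodes. Seurat 5.3.0 grouped the cells without integration, with 2000 variable genes less 24 listed genes, 30 components, 20 neighbours and a resolution of 0.8, and CMs again at 0.6. A group received the name of a marker list with at least 3 markers and over 0.5 of its genes present, a marker being present at 0.25 of its highest level. Groups whose median depth was under 0.333 of that of their libraries, or with low *Postn* despite MC markers, and CMs led by red blood cell genes, stayed unnamed, and *Osr1*-high CMs were kept apart, conditions set after the groups were seen. Libraries with under 20 cells of a population gave no level.

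Summed counts were tested with edgeR 4.0.16 (TMM, filterByExpr, adjusted p under 0.05), with SE as the absolute log2 fold change over the square root of F, after a run on simulated data. DESeq2 1.42.0, RLE size factors, no filter on low counts, stricter cell limits of 1500 genes and 5% mitochondrial UMIs, no removal of doublets, a block for libraries 5 and 6 against 7 and 8, and leaving out each library were alternatives. Genes were named with values at a mean level of 0.2 UMIs per 10000, an adjusted p under 0.05, or an unadjusted p under 0.01 without overlap of genotypes, and others are given where a count needed them. R 4.3.3 and Python 3.11.15 were used.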

Additional observations from a re-analysis of the deposited data

Results flagged for a closer look

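The genotype effect on *Daam1*, a pathway gene outside the module, differed between the EdC populations. Its log2 fold change of *Tie2-cko* over control was lower in cushion EdCs than in chamber EdCs by the interaction term (-0.80, SE 0.14, edgeR adjusted p = 0.0112), which was 1 of 68 genes called of 11872 tested.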

How the results depend on the processing

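The 10 fold changes followed kept their sign in all 100 refits, and all 48 recomputed levels moved by less than 1 SD, to 0.782 to 1.13 times the main value. The refits reused the same 4 libraries. Fold changes named because the genotypes did not overlap could hardly change sign, so the kept sign is no independent support for them. With summed UMIs over summed UMIs as the level, 4 of the 16 genes changed their highest population, *Fzd1* and *Dkk1* to MCs, *Dkk3* to atrial CMs and *Fzd3* to *Osr1*-high atrial CMs. Without thinning, shares were 64.4% for *Wnt4* in cushion EdCs and 72.3% for *Rspo1* in epicardial cells.

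With a block for libraries 5 and 6 against 7 and 8, which is no pairing given by the labels, 3 module genes were called in chamber EdCs (*Fzd2*, *Fzd4* and *Wnt4*), 2 in cushion EdCs (*Dkk1* and *Dkk2*), and 1 each in atrial CMs, sinus venosus CMs and CMs (*Rspo3*), outflow tract CMs (*Wnt2*) and MCs (*Sfrp1*). Their adjusted p are given with the comparison of genotypes. The block called 835 genes in chamber EdCs, 83 in cushion EdCs, 104 in CMs, 65 in ventricular, 39 in trabecular, 40 in atrial, 9 in sinus venosus, 28 in atrioventricular canal and 101 in outflow tract CMs, 91 in MCs and 59 in epicardial cells. The labels give control and *Tie2-cko* libraries no shared replicate numbers, so this split is the only pairing that was fitted.

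Without the filter on low counts, *Dkk1* in cushion EdCs and *Wnt2* in outflow tract CMs were the module genes called, 1 in each population, among 31 and 19 genes. The same setting called 155 genes in chamber EdCs, 7 in ventricular, 13 in trabecular, 16 in atrial, 9 in sinus venosus and 14 in atrioventricular canal CMs, 24 in MCs, 9 in epicardial cells and 181 for the interaction. DESeq2 called 20 genes in chamber EdCs, 8 in cushion EdCs, 1 in CMs, 2 in ventricular, 1 in atrial, 5 in sinus venosus, 4 in atrioventricular canal and 1 in outflow tract CMs, and 8 in MCs, none of the module. In cushion EdCs, RLE size factors called 3 genes, stricter cell limits 5 and no removal of doublets 4, and without that removal 0 were called in epicardial cells. The causes were not tested.

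Leaving out each library in turn called 4 to 62 genes in chamber EdCs, 7 to 14 in cushion EdCs, 0 to 11 in CMs, 2 to 23 in ventricular, 9 to 33 in trabecular, 4 to 46 in atrial, 0 to 94 in sinus venosus, 0 to 47 in atrioventricular canal and 13 to 54 in outflow tract CMs, 0 to 11 in MCs and 6 to 70 in epicardial cells. Module genes called were 0 to 1 in trabecular, 0 to 2 in sinus venosus and 0 to 1 in outflow tract CMs, and 0 in the other populations. The lone library of a genotype is then assumed to vary like the others.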
